A study of Rattus norvegicus with 2 samples.

Results

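The enzymes and transporters that build and sulfate glycosaminoglycans were followed in the acetabular cartilage of 3-week-old Wistar rats with hip dislocation from swaddling. The members were 39 genes chosen by name, of the 17337 genes measured, and a gene was counted as a member when its symbol stood in the table of both libraries. They comprised 5 genes of the linkage region, 6 of chondroitin chain growth, 10 of chondroitin and dermatan sulfation, 9 of heparan sulfate synthesis and 9 of precursor supply. Of these, 35 were in the table, and Xylt1, Chsy3, Glce and Slc35b3 were not analysed here. DA-DDH rats had their hind limbs held straight at the knee, with hips adducted and extended, for 10 days from birth. They were released for several hours at each change of tape and moved freely after the 10 days. RNA from the acetabula of both sides of 5 of them was combined into 1 library. Control rats of the same strain and age were never restrained, and RNA from both sides of 4 of them made the other library. Pooling leaves 1 library per condition, so that no difference has a replicate check and none was tested.

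Chondroitin, dermatan and heparan sulfate are glycosaminoglycans, long sugar chains that are built on proteoglycan core proteins in the Golgi apparatus. A short linkage region of xylose, galactose and glucuronic acid is placed on the core protein first, and the next sugar decides between a chondroitin chain and a heparan chain. Sulfotransferases then add sulfate from the donor PAPS (3'-phosphoadenosine 5'-phosphosulfate), which cells make from sulfate taken up across the membrane. In cartilage the chondroitin sulfate chains of aggrecan hold the fixed negative charge that draws water into the matrix, and inherited loss of many of these enzymes disturbs skeletal growth in humans.

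The libraries held 833869 reads over genes in DA-DDH and 796723 in control cartilage. A log2 ratio of DA-DDH to control was taken after TMM scaling, which sets aside the most extreme genes, wherever the larger of the paired read numbers was 30 or above. This floor was reached by 4375 genes. Their median log2 ratio was 0.03. The cartilage collagen gene Col2a1 alone took 11.4% of the DA-DDH reads and 29.3% of the control reads. Total-count scaling raises each log2 ratio by 0.43. All intervals are exact at 95% and reflect counting error only, given the reads of both libraries. In a bulk sample, fewer cells of a type and less RNA per cell cannot be told apart. Of the chondrocyte markers, 10 of 12 were in the table, and all 10 were lower in the DA-DDH library (summed reads 112040 in DA-DDH and 261687 in control). The summed reads were higher in DA-DDH for endothelial markers (1277 in DA-DDH and 423 in control, 9 of 9 at the floor above 0), skeletal muscle markers (2310 and 768, 9 of 10) and macrophage markers (614 and 171, 4 of 4). No marker of these lists that is in the table had 0 reads in both libraries.

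Among the 22 members at the floor, 12 had a log2 ratio below 0 and 10 above 0, with a median of -0.12. With total-count scaling 6 were below 0 and 16 above, the median was 0.30, and 16.8% of all genes at the floor were below 0. Only Chst11, the chondroitin 4-O-sulfotransferase of cartilage, was lower in DA-DDH by more than 2-fold with TMM scaling, and no member was higher by that much. Over all genes at the floor, 3.04% were more than 2-fold lower and 4.82% more than 2-fold higher, so the members' counts of 1 and 0 were near what the whole table held. On the TMM scale, counting intervals lay wholly below 0 for 6 members, namely Chst11, Chpf2, Papss1, Papss2, Slc26a2 and Slc35b2, and wholly above 0 for none. Over all genes at the floor, 14.1% had such an interval below 0 and 13.8% above 0. With total-count scaling the split turned to 1 member below 0, Chst11, and 6 above 0, namely Chsy1, Csgalnact2, Ext1, Ext2, Extl3 and Hs2st1, where 3.66% of all genes at the floor were below 0 and 41.9% above 0. The 13 members under the floor are given by their reads only. The plot of reads by member shows how few reads lie behind most of these genes.

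**Figure D1:**
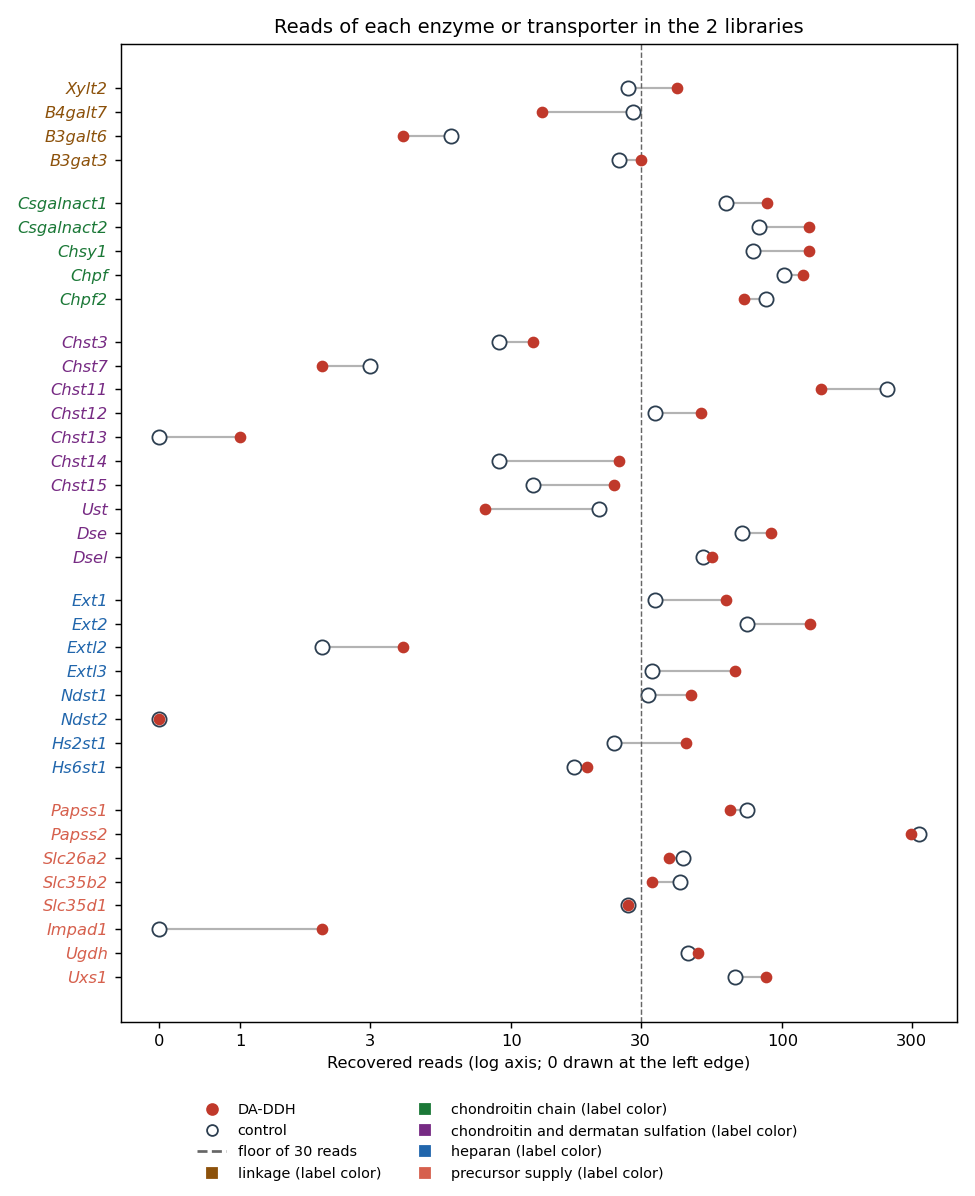
Recovered reads (log axis) of each of the 35 members in the table, filled points for DA-DDH and open points for control cartilage, with gene labels colored by step and a dashed line at the floor of 30 reads. Papss2 and Chst11 had the most reads, and the control library held more reads of Chst11 (139 in DA-DDH and 242 in control).

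Upstream sequences are shown for a pair of 4-O-sulfotransferases whose ratios differed, Chst11 and Chst12, and for the pair of PAPS synthases whose ratios were alike in sign, Papss2 and Papss1. Each is the stretch of 250 bases before the annotated start, from RefSeq on the build GRCr8, printed from 5′ to 3′ on the strand of the gene. Capitals mark the GC box GGGCGG or its complement CCGCCC, a motif that Sp family factors are known to bind.
Chst11 (chr7:22630442-22630691, minus strand): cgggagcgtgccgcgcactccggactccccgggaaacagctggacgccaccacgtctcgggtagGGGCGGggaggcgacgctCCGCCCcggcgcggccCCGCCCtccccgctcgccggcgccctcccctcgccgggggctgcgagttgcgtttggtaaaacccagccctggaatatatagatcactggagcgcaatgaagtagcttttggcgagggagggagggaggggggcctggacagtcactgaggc
Chst12 (chr12:19226199-19226448, minus strand): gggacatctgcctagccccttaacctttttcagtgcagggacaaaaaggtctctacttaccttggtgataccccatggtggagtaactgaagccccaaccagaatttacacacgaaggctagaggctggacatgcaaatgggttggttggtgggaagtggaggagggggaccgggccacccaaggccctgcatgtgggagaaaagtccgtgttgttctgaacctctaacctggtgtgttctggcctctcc
Papss2 (chr1:239867463-239867712, plus strand): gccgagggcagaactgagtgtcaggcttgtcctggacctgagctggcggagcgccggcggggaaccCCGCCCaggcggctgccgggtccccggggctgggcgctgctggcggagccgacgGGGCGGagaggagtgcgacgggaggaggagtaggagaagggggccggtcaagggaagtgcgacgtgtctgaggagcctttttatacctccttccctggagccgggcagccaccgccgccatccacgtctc
Papss1 (chr2:222714180-222714429, plus strand): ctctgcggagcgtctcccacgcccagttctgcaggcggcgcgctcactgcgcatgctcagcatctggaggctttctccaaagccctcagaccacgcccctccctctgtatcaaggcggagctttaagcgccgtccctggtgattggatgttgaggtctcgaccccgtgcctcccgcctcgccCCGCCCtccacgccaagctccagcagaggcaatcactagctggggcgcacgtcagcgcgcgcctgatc
The GC box occurred 3 times in the Chst11 stretch, 2 times in that of Papss2, 1 time in that of Papss1 and 0 times in that of Chst12. Whether the annotated starts are starts of transcription was not tested, and the rn6 model of Chst12 is a single exon. Of the members, 31 had an upstream sequence, and 21 of them held a GC box on either strand, against 30.5% of all 33469 stretches of the same length. The letters ACAAAG, a core that SOX factors can bind, or CTTTGT on the other strand, were in 3 of the 31 member stretches, those of Chsy1, Uxs1 and Chst3, and in 16.3% of all stretches. The 33469 stretches were not limited to the 17337 genes measured or to genes at the floor. The shares of the members and of all stretches are therefore not from like sets of genes. The motifs do not overlap in these letters, and a match in a sequence is not a site of binding.

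Among the members at the floor, Chst11 had the ratio farthest from 0 with TMM scaling, and Extl3 with total-count scaling (0.95). Chst11 encodes the enzyme that places sulfate on the 4-position of N-acetylgalactosamine in chondroitin, and mice without it have a severe chondrodysplasia. Its 3 annotated exons span 26645422 to 26859716 on chromosome 7 (rn6, minus strand). It had 139 reads in the DA-DDH and 242 in the control library. Its log2 ratio was -1.29, that is 2.44-fold lower in DA-DDH, with an interval of -1.60 to -0.99. With total-count scaling this was -0.86, still below 0 but within 2-fold. Its level per length was 72.3 CPM (TMM-scaled) per kb of exon in DA-DDH and 177 in control cartilage, which placed it second among the 22 members in DA-DDH and first in control. The 10 chondrocyte markers in the table were also lower, with log2 ratios from -1.79 to -0.47 and a median of -1.47. Among them were Acan at -0.99 (aggrecan, 5127 reads in DA-DDH and 7254 in control) and Sox9 at -1.26 (the transcription factor required for cartilage, 348 and 595 reads). The log2 ratio of Chst11 minus that of Acan was -0.30, with an interval from -0.62 to 0.01 that includes 0. The part of the cell makeup in this difference was not tested.

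Chst12 encodes another 4-O-sulfotransferase with a broader tissue range. Its model on chromosome 12 of rn6, from 16200017 to 16201628, is a single exon. Chst12 had 50 reads in DA-DDH and 34 in control cartilage, a log2 ratio of 0.06 (interval -0.59 to 0.74). The log2 ratio of Chst11 minus that of Chst12 was -1.35 (interval -2.10 to -0.62), a value that does not depend on how the libraries are scaled, for a pair chosen after its values were seen. The reads of all 8 sulfotransferases of chondroitin and dermatan came to 261 in DA-DDH and 330 in control. Of these, Chst11 made up 53.3% in DA-DDH (95% exact binomial interval 47.0 to 59.4) and 73.3% in control (68.2 to 78.0), while Chst12 made up 19.2% (14.6 to 24.5) in DA-DDH and 10.3% (7.24 to 14.1) in control. Chst11 thus held a smaller share of these reads in the DA-DDH library, with counting intervals that do not overlap. It was singled out after its values were seen, which these intervals do not account for. The larger share of Chst12 is no separate result, since without the Chst11 reads Chst12 made up 41.0% of 122 reads in DA-DDH (32.2 to 50.3) and 38.6% of 88 in control (28.4 to 49.6).

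The other sulfotransferases of this step were under the floor. Chst3, the 6-O-sulfotransferase whose loss causes a spondyloepiphyseal dysplasia in humans, had 12 reads in DA-DDH and 9 in control. Chst7, a related 6-O-sulfotransferase, had 2 and 3 reads in DA-DDH and control. Chst13, another 4-O-sulfotransferase, had 1 read in DA-DDH and 0 in control, where a count of 0 leaves room for as many as 3 reads. These genes could not be compared at this depth. Chst14, which sulfates dermatan at the 4-position, had 25 reads in DA-DDH and 9 in control. Chst15, which adds a further sulfate to N-acetylgalactosamine that carries 4-O-sulfate, had 24 and 12 reads in DA-DDH and control. Ust, which sulfates uronic acid at the 2-position, had 8 reads in DA-DDH and 21 in control. Their reads thus differed in either direction, with numbers too small for the floor.

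The epimerases Dse and Dsel turn glucuronic into iduronic acid and so make dermatan out of chondroitin. Dse had 91 reads in DA-DDH and 71 in control (log2 ratio -0.13, interval -0.60 to 0.33). Dsel had 55 and 51 reads in DA-DDH and control (-0.38, interval -0.96 to 0.20). Both intervals include 0. Over the whole step of sulfation and epimerization, with members under the floor included, the summed reads were 407 in DA-DDH and 452 in control, a log2 ratio of -0.64 (interval -0.84 to -0.45). Without Chst11 the unscaled sums were 268 in DA-DDH and 210 in control. The TMM-scaled library sizes were 966611 in DA-DDH and 687311 in control, so these sums alone do not give a direction. The median of the 4 members at the floor, with Chst11 among them, was -0.26. With total-count scaling this median was 0.17, and the ratio of summed reads of the whole step was -0.22.

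**Figure D2:**
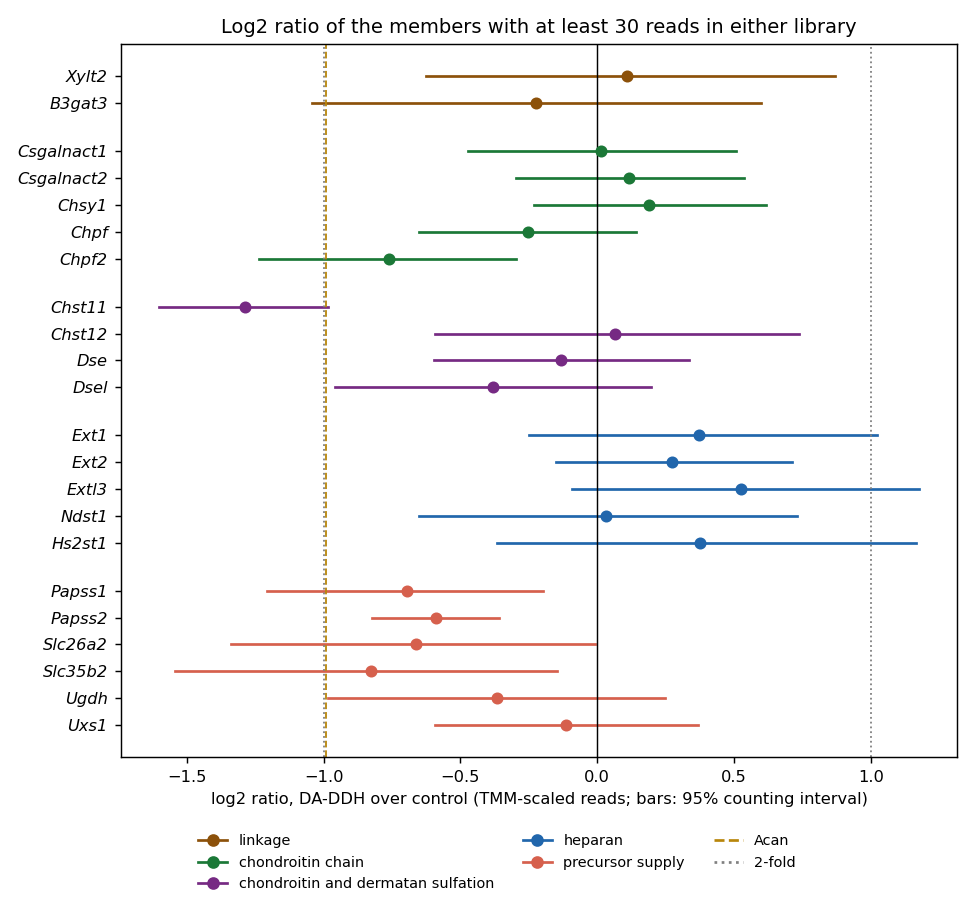
Log2 ratio of DA-DDH over control (TMM-scaled reads) for the 22 members at the floor, in order of the steps, with bars for the 95% counting interval, dotted lines at 2-fold and a dashed line at the ratio of Acan. Chst11 at -1.29 is the only point beyond 2-fold, the 6 precursor genes lie left of 0 and the 5 heparan genes lie right of 0.

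Precursor supply had the lowest median of the 5 steps at the floor of 30 reads, though by summed reads sulfation was lower, as was the linkage median with no floor (-0.60 against -0.54) and the sulfation median with a floor of 100 (-1.29 against -0.59). All 6 members at the floor had log2 ratios below 0, between -0.83 and -0.11 with a median of -0.63, where 47.4% of all genes at the floor were below 0. With total-count scaling 4 of the 6 remained below 0 and the median was -0.20. The summed reads of the step were 599 in DA-DDH and 618 in control, a log2 ratio of -0.54 (interval -0.70 to -0.37).

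Papss2 encodes the PAPS synthase of growing cartilage, and its loss causes short stature in humans and the brachymorphic trait in mice. It lies on chromosome 1 of rn6 from 251145363 to 251230716 with 12 exons and had the most reads of any member, 299 in DA-DDH and 320 in control. Its log2 ratio was -0.59 (interval -0.82 to -0.36), and -0.16 with total-count scaling. Papss1, the synthase that most tissues use, on chromosome 2 from 236605695 to 236680772, had 64 and 74 reads in DA-DDH and control (-0.70, interval -1.21 to -0.20). The log2 ratio of Papss2 minus that of Papss1 was 0.11 (interval -0.45 to 0.67), so a difference between the synthases was not detectable at this depth. Papss2 made up 82.4% of their reads in DA-DDH (interval 78.1 to 86.1) and 81.2% in control (77.0 to 85.0).

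The transporters of the sulfate route were at similar ratios. Slc26a2 brings sulfate into chondrocytes, and its variants cause diastrophic dysplasia in humans. It had 38 reads in DA-DDH and 43 in control, at -0.66 (interval -1.34 to -0.0066). Slc35b2, which carries PAPS into the Golgi apparatus, had 33 and 42 reads in DA-DDH and control, at -0.83 (interval -1.54 to -0.15). Impad1 clears the by-product of sulfation in the Golgi apparatus and had 2 reads in DA-DDH and 0 in control. Its exons are annotated at 2 places of the genome, and how reads that fit both were counted is unknown, so it was not used as a measurement.

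The nucleotide sugar enzymes lay closer to 0 with TMM scaling, but their intervals overlap those of the sulfate route. Ugdh makes UDP-glucuronic acid, the building block of all these chains, and had 49 reads in DA-DDH and 45 in control (-0.37, interval -0.98 to 0.25). Uxs1 turns it into UDP-xylose for the linkage region and had 87 and 67 reads in DA-DDH and control (-0.11, interval -0.59 to 0.37). With total-count scaling Ugdh was at 0.06 and Uxs1 at 0.31. Uxs1 was then farther from 0 than Papss2 at -0.16, but not than Slc35b2 at -0.41. Slc35d1, which carries nucleotide sugars into the endoplasmic reticulum and whose loss in humans causes Schneckenbecken dysplasia, had 27 reads in each library.

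In the linkage region, Xylt2 and B3gat3 reached the floor and had intervals on both sides of 0. Xylt2, which attaches xylose to the core protein, had 41 reads in DA-DDH and 27 in control (0.11, interval -0.62 to 0.87). B3gat3, which adds the glucuronic acid that completes the linkage, had 30 and 25 reads in DA-DDH and control (-0.22, interval -1.04 to 0.60). These genes were therefore not separated from 0 at this depth. The galactosyltransferases were under the floor. B4galt7, which adds the first galactose, had 13 reads in DA-DDH and 28 in control, and B3galt6, which adds the next, had 4 and 6. The summed reads of the step were 88 in DA-DDH and 86 in control, of which B4galt7 made up 13 and 28. Their log2 ratio was -0.46 (interval -0.90 to -0.013) with TMM and -0.03 with total-count scaling. The median of the 2 members at the floor was -0.06, and the sum had the fewest reads of any step.

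Chondroitin chain growth was close to 0 as a step. Its 5 members in the table reached the floor, with a median log2 ratio of 0.01, and the summed reads were 529 in DA-DDH and 410 in control (-0.12, interval -0.31 to 0.07). Csgalnact1 and Csgalnact2 add the first N-acetylgalactosamine that commits a chain to chondroitin. Csgalnact1 had 88 reads in DA-DDH and 62 in control (0.01, interval -0.47 to 0.51), and Csgalnact2 had 125 and 82 (0.12, interval -0.30 to 0.54). Chsy1, a synthase that lengthens the chain and whose loss causes a brachydactyly syndrome in humans, had 125 and 78 reads in DA-DDH and control (0.19, interval -0.23 to 0.62). Chpf, a partner of the synthases in chain polymerization, had 119 and 101 (-0.25, interval -0.65 to 0.14). Chpf2, a further such partner, was the exception with 72 reads in DA-DDH and 87 in control (-0.76, interval -1.24 to -0.30). Its exons enclose those of the microRNA gene Mir671, which had 0 reads in both libraries. With total-count scaling the median of the step was 0.44 and the ratio of its summed reads 0.30.

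Heparan was the step with the highest median among members at the floor. All 5 at the floor were above 0 with TMM and with total-count scaling, where 52.6% and 83.2% of all genes at the floor were above 0, and their median was 0.37 with TMM and 0.79 with total-count scaling. Each single interval on the TMM scale included 0. Ext1 and Ext2 form the polymerase of heparan sulfate, and variants in either cause multiple cartilage-capped bone outgrowths in humans. Ext1 had 62 reads in DA-DDH and 34 in control (0.37, interval -0.25 to 1.02), and Ext2, on chromosome 3 of rn6 from 82602785 to 82734533, had 126 and 74 (0.27, interval -0.15 to 0.71). Extl3, which starts the heparan chain, had the highest ratio of the 22 members at the floor, 0.52 (interval -0.09 to 1.18), with 67 reads in DA-DDH and 33 in control.

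The modifying enzymes of heparan were measured with fewer reads. Ndst1 replaces acetyl by sulfate on glucosamine and had 46 reads in DA-DDH and 32 in control (0.03, interval -0.65 to 0.73). Hs2st1 sulfates uronic acid at the 2-position and had 44 and 24 in DA-DDH and control (0.38, interval -0.37 to 1.16). Hs6st1, which sulfates glucosamine at the 6-position, had 19 and 17 reads in DA-DDH and control, and Extl2, which can end a chain at the linkage region, had 4 and 2. Ndst2 had 0 reads in both libraries. Its exons are annotated at 2 places of chromosome 15 and overlap those of Zswim8, so the 0 was not taken as absence. The summed reads of the step were 368 in DA-DDH and 216 in control, a log2 ratio of 0.28 (interval 0.03 to 0.53).

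The steps were then set against each other by their summed reads, which does not depend on scaling. The log2 ratio of chondroitin and dermatan sulfation minus that of heparan was -0.92 (interval -1.24 to -0.60), and without Chst11 it was -0.42 (interval -0.78 to -0.05). The same difference was -0.81 for precursor supply (interval -1.11 to -0.52) and -0.40 for chondroitin chain growth (interval -0.72 to -0.09). For the linkage region, whose sum includes B4galt7 under the floor, it was -0.73 (interval -1.25 to -0.22). The heparan step had the highest summed ratio of the 5 steps and was made the reference after the values were seen. The difference of each other step was therefore bound to be below 0, and the intervals do not account for this choice. How far like libraries vary is not known from 1 library per condition. The summed reads of 13 heparan enzymes outside the members were 458 in DA-DDH and 341 in control, at -0.07 (interval -0.27 to 0.14) on the TMM scale. Fibroblast markers (1489 summed reads in DA-DDH and 798 in control, 6 of 6 at the floor above 0) and the endothelial markers (9 of 9 above 0) were higher in the same library, and their part in the heparan ratios was not tested.

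**Figure D3:**
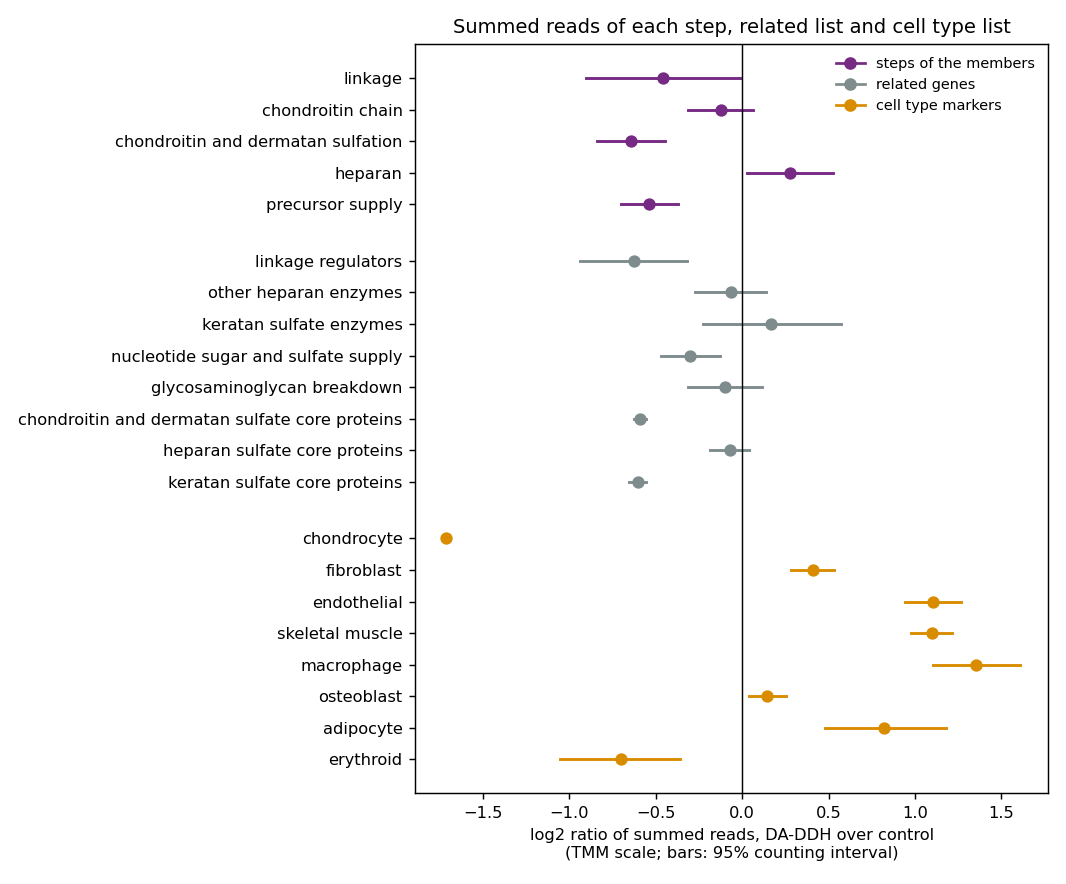
Log2 ratio of summed reads, DA-DDH over control on the TMM scale, for the 5 steps, the related gene lists and the cell type marker lists, with bars for the 95% counting interval. Sulfation at -0.64 and precursor supply at -0.54 lie left of 0, heparan at 0.28 right of 0, and the chondrocyte markers at -1.72 lie further left than any step. Col2a1 alone made up 95275 of the 112040 chondrocyte marker reads in DA-DDH and 233705 of 261687 in control.

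Among 6 pairs of related enzymes chosen after their values were seen and with both genes at the floor, the interval of the difference was away from 0 for Chst11 and Chst12 only. It included 0 for Papss2 and Papss1 (above), for Csgalnact1 and Csgalnact2 (-0.10, interval -0.75 to 0.55), for Chpf and Chpf2 (0.51, interval -0.11 to 1.13), for Dse and Dsel (0.25, interval -0.50 to 1.00) and for Ext1 and Ext2 (0.10, interval -0.67 to 0.88). These intervals do not show that the genes of a pair moved alike. Relative to Acan, 21 of the 22 members had a higher ratio, and the interval was above 0 for 16 of them, but 96.9% of all genes at the floor had a higher ratio than Acan.

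Levels per length, in the unit given for Chst11, differed widely among the members. Papss2 stood at 88.6 in DA-DDH and 133 in control, ahead of Uxs1 at 44.9 and 48.6 and Ext2 at 47.7 and 39.4. Chpf stood at 42.2 in DA-DDH and 50.4 in control, and Chst12 at 32.1 and 30.7. Among members at the floor, Dsel was lowest in DA-DDH (9.96 in DA-DDH and 13.0 in control) and Hs2st1 was lowest in control (11.1 and 8.48). Acan, a core protein that carries these chains, stood at 764.5 in DA-DDH and 1521 in control. No member thus came near the level of the core protein, and Chst11 and Papss2 led the members in both libraries.

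**Figure D4:**
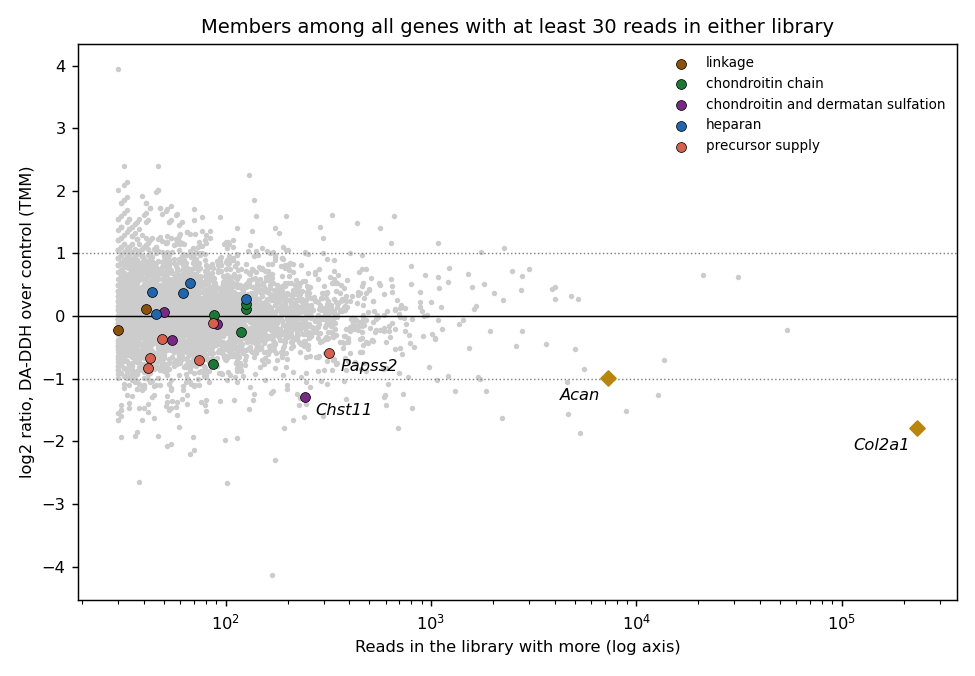
Log2 ratio of DA-DDH over control (TMM) against reads in the library with more (log axis) for the 4375 genes at the floor in gray, with the 22 members colored by step and Acan and Col2a1 as diamonds. Most members lie within 2-fold of 0 in the dense part of the cloud, and Chst11 at -1.29 lies below it among more scattered genes.

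The other genes of the pathway were read from lists chosen by function. Fam20b, the kinase that phosphorylates the linkage xylose, had 91 reads in DA-DDH and 119 in control (log2 ratio -0.87, interval -1.29 to -0.47), and Pxylp1, the phosphatase that reverses this, had 80 and 69 (-0.28, interval -0.76 to 0.21). Of 13 further heparan enzymes, 3 were at the floor. These were Extl1 with 24 reads in DA-DDH and 35 in control (-1.02, interval -1.85 to -0.25), and the sulfatases Sulf1 at 0.36 and Sulf2 at -0.06, whose intervals include 0. Ndst3, Ndst4, Hs3st2 and Hs3st5 had 0 reads in both libraries. Of 10 keratan sulfate enzymes, B3gnt2 at 0.90 and B4galt1 at 0.36 reached the floor, again with intervals that include 0.

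Of 13 further genes of nucleotide sugar and sulfate supply, 7 were at the floor, 5 below and 2 above 0, with a median of -0.44. Pgm3 was at -0.57 (interval -1.32 to 0.16), Slc35b4 at -0.44 (-1.19 to 0.30) and Gfpt2 at -0.44 (-0.99 to 0.10). Each of these intervals includes 0. Of 18 genes of lysosomal and extracellular breakdown or of sulfatase activation, 5 were at the floor, 3 below and 2 above 0. They were Arsb at -0.64, Idua at -0.41, Gusb at -0.12, Hexa at 0.10 and Glb1 at 0.17, and all 5 intervals included 0. Idua shares exonic sequence with Slc26a1, and the sources do not say whether counting was strand-specific. Hexa was named after its value was seen.

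The core proteins that carry the chains lay on both sides of 0. In the chondroitin and dermatan sulfate list, 5 of 9 reached the floor. Vcan, the large proteoglycan versican, was at 1.02 (1742 reads in DA-DDH and 610 in control), and Dcn, decorin, named after its value was seen, at 0.28 (470 and 275). Acan was at -0.99, Bgn, biglycan, at -0.52 (4901 reads in DA-DDH and 5007 in control) and Cspg4 at -0.42 (495 and 472). In the heparan sulfate list, 7 of 13 reached the floor, 4 below and 3 above 0. Col18a1, a basement membrane collagen, was at 0.75 (462 reads in DA-DDH and 195 in control), while the syndecan Sdc2 was at -0.65 (245 and 274), Sdc4 at -0.54 and Agrn, agrin, at -0.56. In the keratan sulfate list, 4 of 6 reached the floor, with Fmod, fibromodulin, at -0.84 (4347 reads in DA-DDH and 5547 in control), Lum, lumican, at 0.80 (797 and 325), Prelp at 0.10 and Kera at 0.04.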

How the data were processed

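RNA-seq of acetabular cartilage gave 1 library of pooled RNA from 5 DA-DDH rats and 1 from 4 control rats. For the authors' alignment, rn6, TopHat and Cufflinks are named in the submitters' notes. The study's methods name the TruSeq Stranded mRNA kit, whereas the labels name a SMARTer stranded total RNA kit. The tool for counting reads is not given. The deposited signal is the authors' normalized read count. All values (100% in each library, relative tolerance 1e-06) were whole multiples of 1 step, 0.855 in DA-DDH and 1.20 in control, and reads were recovered by division. With 1 library per condition no count test was made, and the authors' own columns of fold change, p-value, q-value, rank and call were not used.

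Reads were scaled by TMM (factors 1.16 for DA-DDH and 0.863 for control) in edgeR 4.0.16 (R 4.3.3), and log2 ratios took a prior of 0.5 reads, scaled to library size. Every member was accounted for, those whose larger read number was 30 or above by ratio, and up to 4 genes of each related list by largest absolute ratio. A gene that this rule names in 1 related list is not reported here. Further related genes, the enzyme pairs and the step differences were chosen after values were seen. Members and lists were chosen with earlier results of these data known. Differences between genes or summed steps are conditional odds ratios of the reads with exact intervals. The calculations were tested on simulated data. Alternatives were total-count and upper-quartile scaling, DESeq2 1.42.0 size factors, values as deposited, a prior of 2 reads, floors of 10 and 100 reads and none, a 1.5-fold threshold, and members without exon overlap. Other tools were matplotlib 3.10.9, pandas 2.3.3 and scipy 1.17.1 under Python 3.11.15. Of the 39 member symbols, 31 had an upstream sequence in the RefSeq table of GRCr8, and no coordinates were converted between builds.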

Additional observations from a re-analysis of the deposited data

How the results depend on the processing

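No paired analysis was possible because each condition has 1 library, and for the same reason no replicate could be left out. Upper-quartile scaling, median-of-ratios size factors, values as deposited, a prior of 2 reads and leaving out members with exon overlap moved no median, sum or count by more than the limits set. With total-count scaling no member was more than 2-fold lower (0 in place of 1), the median over all members was 0.30, and the step medians were 0.44 for chondroitin chain growth, 0.17 for chondroitin and dermatan sulfation, 0.79 for heparan and -0.20 for precursor supply. The ratios of summed reads were then 0.30, -0.22, 0.70 and -0.11 in the same order, and -0.03 for the linkage region. Total-count scaling adds the same amount to every ratio, and 4 of 22 members moved beyond their counting interval, among them Chst11 and Papss2. Of all 4375 genes at the floor, 47 were then more than 2-fold lower and 638 more than 2-fold higher. With a floor of 10 reads, 29 members entered and 3 were more than 2-fold lower. With no floor, 34 entered, 3 were more than 2-fold lower and 2 more than 2-fold higher, and the linkage median was -0.60. With a floor of 100 reads, 6 members were left, and the median of chondroitin and dermatan sulfation, then Chst11 alone, was -1.29. A 1.5-fold threshold counted 6 lower members, against 10.3% of all genes at the floor. These changes of floor and threshold alter which genes are counted. Shares over all genes were not computed at the other floors, so the counts there are not read as results about the members. Depth limits most members, since 13 of 35 in the table were under 30 reads.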
